A study of Mus musculus with 6 samples.

Results

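Immediate-early response genes are transcribed within minutes of a signal, from factors already present in the cell, and their products are mostly short-lived. The 33 genes described here were named in a fixed list and matched by symbol, and all 33 were among the 31053 genes of the deposited tables. They were measured by droplet-based single-cell RNA sequencing of sorted mouse pancreatic cells, in which each unique molecular identifier (UMI) counts 1 captured RNA molecule. All mice carried the R26[CA]30EYFP allele on the C57Bl/6J background, an EYFP (yellow fluorescent protein) construct used for continuous clonal labelling per the series' title. Pancreatitis was induced with cerulein, a secretagogue that injures acinar cells when given in excess, as 7 hourly injections of 50 ug/kg a day on 2 days, and cells were taken at day 9. The groups were EYFP positive pancreatitis (1 library, run 3), EYFP negative pancreatitis (1 library, run 3), EYFP positive homeostasis (2 libraries, runs 1 and 2) and EYFP negative homeostasis (2 libraries, runs 1 and 2), and homeostasis mice had no treatment. Ages, numbers of animals and pooling are not in the labels, and a p-value below speaks only of variation among these 6 libraries, which may be technical. EYFP itself had 0 rows in the tables, and the counts offer no check of the sort.

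By role, Fos, Fosb, Fosl2, Jun, Junb and Jund encode subunits of AP-1, a dimeric transcription factor, and Atf3 is a stress-induced partner of AP-1 proteins. Egr1, Egr2, Egr3, Klf2, Klf4 and Klf6 are zinc finger transcription factors, Nr4a1 and Nr4a2 are orphan nuclear receptors, Myc drives growth genes and Csrnp1 is a nuclear protein. Ier2, Ier3, Ier5, Btg1 and Btg2 are early response genes, the last pair anti-proliferative. Dusp1 dephosphorylates MAP kinases, Zfp36 and Zfp36l1 bind and destabilise AU-rich mRNAs, Nfkbia holds NF-kB in the cytoplasm, Nfkbiz is a nuclear relative of it, and Socs3 restrains cytokine receptors. Mcl1 protects from apoptosis, Gadd45b and Gadd45g respond to stress, Rhob is a small GTPase and Phlda1 is a pleckstrin homology-like protein. In tissues taken apart with enzymes, several of these genes, Fos, Jun and Egr1 among them, are known to be induced by the procedure itself, so levels in sorted cells can include a response to handling. That part was not measured here.

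The 6 libraries held 44833541 UMIs over 8582 barcodes, from 1044718 UMIs (EYFP positive run 2) to 23658431 UMIs (EYFP negative run 3), and 4888 cells were kept. Classes of cells are marker-based likenesses of clusters made without the 33 genes. Endothelial-like, B or plasma-like, T or NK-like and ductal-like cells had at least 10 cells in every library and were tested. Of their markers, 19 of 21, 16 of 21, 21 of 22 and 16 of 16 were found in at least 10% of the cells. Haemoglobin genes held 20.2% and 62.6% of UMIs in EYFP positive and EYFP negative pancreatitis, against at most 7.23% in homeostasis libraries. Condition and run cannot be told apart, since both pancreatitis libraries came from run 3, nor can condition and the sex of the cells: Xist, the RNA of the inactive X chromosome, was at most 150.2 CPM in the pancreatitis libraries of these 4 classes and at least 178 CPM in homeostasis. CPM are UMIs of a gene per 1000000 UMIs of a class in a library, without scaling by gene length, so levels are compared between classes and not between genes. The EYFP positive and EYFP negative libraries of a run shared cell barcodes, 18 in run 1, 68 in run 2 and 11 in run 3, against 0 to 2 between runs. The 68 of run 2 were 36.4% of the 187 cells of EYFP positive run 2, and 61 of them fell in the same class in both libraries. Fits without these cells are given below for the EYFP comparison and, in pancreatitis, for genes of endothelial-like, B or plasma-like and ductal-like cells. No such fit is given for Phlda1 and Klf6, which passed the threshold in T or NK-like cells.

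Promoters were available for 27 of the 33 genes in RefSeq (build GRCm38.p6), as 300 bases from 250 before to 50 after the start of transcription. They are shown for 4 of the genes described below whose windows differ in the motif they hold: Fos and Junb of AP-1, and the feedback genes Dusp1 and Zfp36. The windows are Fos chr12:85473640-85473939 (plus strand), Junb chr8:84978699-84978998 (minus strand), Dusp1 chr17:26508423-26508722 (minus strand) and Zfp36 chr7:28379179-28379478 (minus strand). Capitals mark a match to 1 of 4 motifs searched on both strands, namely the cyclic AMP response element (CRE, TGACGTCA), the AP-1 element (TGANTCA), the CArG box of serum response factor and the kappaB site.
Fos: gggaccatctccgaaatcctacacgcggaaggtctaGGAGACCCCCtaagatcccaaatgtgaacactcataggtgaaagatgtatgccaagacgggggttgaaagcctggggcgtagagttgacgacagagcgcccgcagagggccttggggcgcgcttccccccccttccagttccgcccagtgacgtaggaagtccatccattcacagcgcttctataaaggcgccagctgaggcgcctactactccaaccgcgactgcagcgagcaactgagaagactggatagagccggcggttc
Junb: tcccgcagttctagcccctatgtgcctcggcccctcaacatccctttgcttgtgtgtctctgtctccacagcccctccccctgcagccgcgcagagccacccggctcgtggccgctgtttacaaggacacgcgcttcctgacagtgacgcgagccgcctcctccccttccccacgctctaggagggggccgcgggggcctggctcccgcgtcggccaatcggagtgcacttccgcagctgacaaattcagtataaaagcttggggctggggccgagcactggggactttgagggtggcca
Dusp1: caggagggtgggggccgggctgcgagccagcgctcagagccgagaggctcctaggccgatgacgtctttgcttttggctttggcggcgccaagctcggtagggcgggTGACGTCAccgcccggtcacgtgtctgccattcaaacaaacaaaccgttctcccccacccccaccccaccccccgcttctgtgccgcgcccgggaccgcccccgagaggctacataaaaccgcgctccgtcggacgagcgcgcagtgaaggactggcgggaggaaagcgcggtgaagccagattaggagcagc
Zfp36: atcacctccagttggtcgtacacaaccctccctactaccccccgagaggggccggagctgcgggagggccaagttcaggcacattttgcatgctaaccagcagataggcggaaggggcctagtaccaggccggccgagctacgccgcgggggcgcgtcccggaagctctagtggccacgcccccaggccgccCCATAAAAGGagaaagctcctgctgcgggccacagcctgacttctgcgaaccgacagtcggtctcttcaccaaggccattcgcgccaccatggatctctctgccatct
The Dusp1 window held a CRE, that of Zfp36 a CArG box and that of Fos a kappaB site, while the Junb window held none of the 4. A CRE was found in 2 of 27 of the genes (Btg2 and Dusp1), against 2.03% of all 27025 genes with such a window. The AP-1 element was found in 2 (Csrnp1 and Zfp36l1), against 8.97% of all genes, and the CArG box in 2 (Egr2 and Zfp36), against 1.81%. A kappaB site was found in 7 (Egr2, Fos, Fosb, Fosl2, Ier3, Nfkbia and Nr4a1), against 9.55% of all genes. A match is a description of letters, and a window without one says nothing about the factor.

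Levels of the 33 genes differed between classes, and the genes did not share 1 order. Values are mean CPM ± SD over the libraries with at least 10 cells of the class. These were n = 6 for endothelial-like, B or plasma-like, T or NK-like and ductal-like cells. For acinar-like and macrophage or monocyte-like cells there were 5, for fibroblast-like 3 and for pericyte or smooth muscle-like and erythroid-like cells 2. No test of levels was made between classes, which came from the same libraries. Klf2, a shear-stress factor of endothelium that also keeps lymphocytes quiescent, had 1214 ± 844 CPM in B or plasma-like, 1101 ± 434 in T or NK-like and 957 ± 288 in endothelial-like cells, against 12.9 ± 13.7 in ductal-like cells. The ranges of these 3 lymphoid and endothelial classes overlapped, and all their libraries lay above all ductal-like ones. Klf4 was highest in endothelial-like cells at 549.6 ± 190.1 CPM, with macrophage or monocyte-like cells next at 361 ± 236, and their ranges overlapped. After each cell was thinned to 1000 UMIs, a UMI of Klf4 was found in 36.3% of endothelial-like, 3.13% of T or NK-like and 0% of erythroid-like cells, against 57.5%, 10.6% and 4.72% unthinned. Klf2 was found in 51.5% of endothelial-like, 1.98% of ductal-like and 3.30% of erythroid-like cells after thinning (68.9%, 10.5% and 17.7% unthinned).

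The AP-1 subunits had wide ranges within each class. Fos had 1467 ± 674 CPM in macrophage or monocyte-like, 750.2 ± 516 in ductal-like, 716 ± 696 in T or NK-like, 685 ± 560.5 in B or plasma-like and 442 ± 252 in endothelial-like cells, and neighbours in this order overlapped. Acinar-like cells, with 820.5 ± 1552 CPM, are described by cluster below. Jun had 1713 ± 512 CPM in ductal-like and 1704 ± 578 in endothelial-like cells, against 33.3 ± 36.1 in erythroid-like cells. Jund, the AP-1 subunit that is usually expressed without a stimulus, had 1610.0 ± 1016 in B or plasma-like and 1563 ± 469 in ductal-like cells. Fosl2 stood at 110.5 ± 46.5 CPM in endothelial-like cells and 2.33 ± 1.74 in B or plasma-like cells. Junb had 1179 ± 174 in macrophage or monocyte-like cells and 23.5 ± 11.1 in erythroid-like cells. Fosb ranged from 9.48 ± 13.4 in erythroid-like to 347 ± 275 in macrophage or monocyte-like cells, and Atf3 had its highest mean, 103 ± 76.2, in macrophage or monocyte-like cells. No UMI of Atf3 was found in the 13 pericyte or smooth muscle-like cells of each of 2 libraries, which allows up to 98.1 and 104 CPM (3 counts), so that class cannot be placed in the order.

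Several other genes also differed between classes, and for some of them the leading class was separate from the next. Egr1, which is induced by growth factors, had 1104 ± 401 CPM in fibroblast-like cells, above all libraries of the next class, ductal-like cells (478 ± 139.5), although acinar-like cells of EYFP positive run 2 reached 1932 CPM. Egr3 had 81.4 ± 25.6 CPM in B or plasma-like cells, with macrophage or monocyte-like cells next at 23.8 ± 33.4 CPM and overlapping. Zfp36 had 711 ± 173 CPM in macrophage or monocyte-like cells, above every library of the next class, endothelial-like cells (249 ± 128). Phlda1 had 963 ± 159 CPM in pericyte or smooth muscle-like and 223 ± 54.2 in fibroblast-like cells, and the ranges of these classes overlapped neither each other nor any other class. Ier3 had 205 ± 127 CPM in endothelial-like and 182 ± 62.99 in ductal-like cells, against 4.79 ± 3.95 in B or plasma-like cells. Ier5 had 458 ± 114 in macrophage or monocyte-like and 420.2 ± 227 in B or plasma-like cells, against 37.9 ± 13.97 in ductal-like cells. Btg1 had 1173 ± 478 in B or plasma-like and 1144 ± 276 in T or NK-like cells. Nr4a2 had 46.97 ± 40.5 in T or NK-like and 34.9 ± 31.00 in endothelial-like cells, and its relative Nr4a1 261 ± 148 in macrophage or monocyte-like and 176 ± 161 in endothelial-like cells. For Ier3, Ier5, Btg1, Nr4a2 and Nr4a1 the class named first overlapped in range with the class named next, so none had a separate leading class.

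Among the remaining genes, macrophage or monocyte-like cells had the highest mean of Dusp1 (600.2 ± 132 CPM), Klf6 (469 ± 149), Nfkbia (519 ± 158), Nfkbiz (165 ± 66.8), Mcl1 (679.8 ± 121), Gadd45b (322 ± 195) and Csrnp1 (37.3 ± 11.1), and each overlapped with the next class. Egr2 was low everywhere, with 15.2 ± 14.3 CPM in its leading class, macrophage or monocyte-like cells. The highest mean was in ductal-like cells for Ier2 (504 ± 265), in fibroblast-like cells for Zfp36l1 (702 ± 373) and Socs3 (157 ± 185), in T or NK-like cells for Btg2 (637 ± 264), in pericyte or smooth muscle-like cells for Rhob (659 ± 146) and in acinar-like cells for Gadd45g (107 ± 199.8). None of these leading classes was separate from the next in its library range. Over all 33 genes, the leading class changed for 17 when some 1 library was left out of all classes. Gadd45g stood at 18.4 CPM in acinar-like cells without EYFP positive run 2, below B or plasma-like cells at 53.8 CPM. Without EYFP negative run 1, Socs3 stood at 50.7 CPM in fibroblast-like cells, below macrophage or monocyte-like cells at 74.4 CPM, and Zfp36l1 at 495 CPM, below endothelial-like cells at 654 CPM. Myc in pericyte or smooth muscle-like cells rested on 2 UMIs in each of 2 libraries (exact Poisson intervals of 7.92 to 236 and 8.40 to 250.5 CPM), too few to rank. Myc stood at 1.59 ± 1.40 CPM in endothelial-like cells and 62.6 ± 27.9 in B or plasma-like cells, whose ranges did not overlap.

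**Figure D1:**
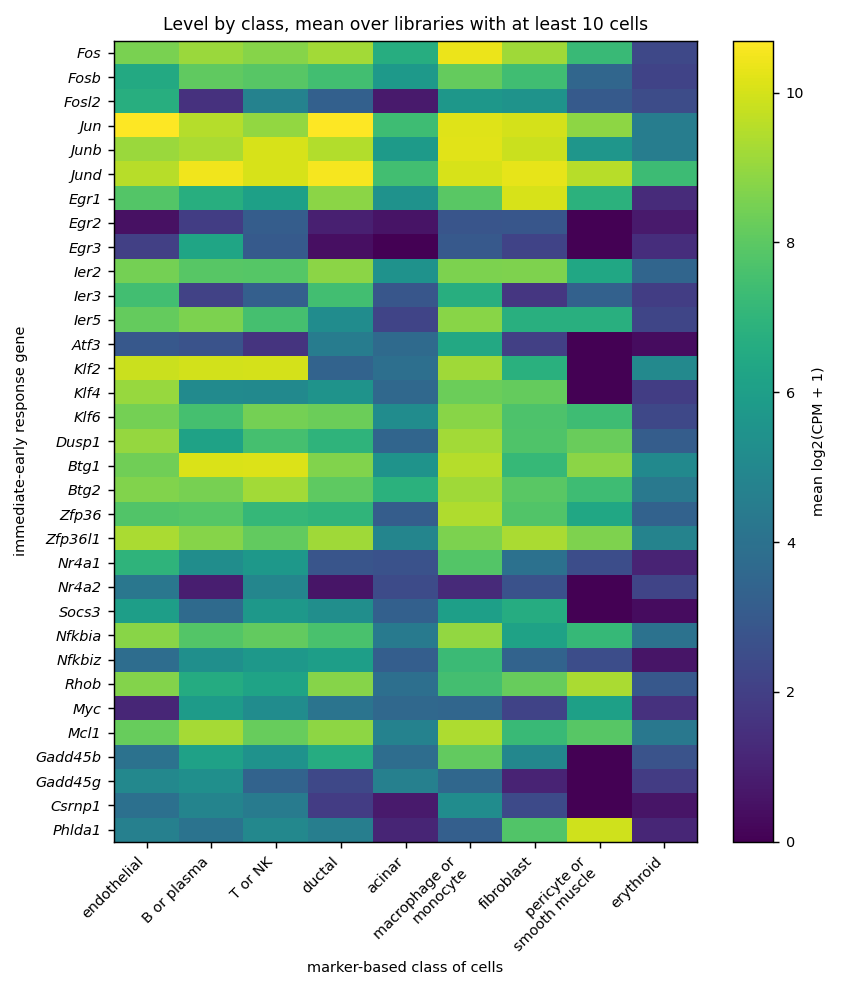
Each row is 1 of the 33 genes and each column a marker-based class, and the colour is the mean of log2(CPM + 1) over libraries with at least 10 cells of the class. Klf2 was high in endothelial-like, B or plasma-like and T or NK-like cells, Phlda1 in pericyte or smooth muscle-like cells, and the erythroid-like column was low for nearly all genes. The darkest pericyte or smooth muscle-like fields rest on 0 UMIs in 13 cells per library.

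Summed, the 33 genes made up 0.511% to 2.04% of UMIs in the libraries of the 4 tested classes. In B or plasma-like cells the share was 0.672%, 2.04% and 1.27% in EYFP positive runs 1, 2 and 3, against 0.602%, 0.580% and 1.14% in EYFP negative runs 1, 2 and 3. In T or NK-like cells it was 0.774%, 1.47% and 1.30%, against 0.665%, 0.511% and 1.11%, and in ductal-like cells 0.836%, 1.47% and 0.887%, against 0.848%, 0.661% and 1.15%. EYFP positive run 2 was the highest library in all 3 of these classes, and both pancreatitis libraries exceeded the run 1 libraries. Endothelial-like cells differed from that order, with 1.36%, 1.35% and 0.707% in EYFP positive runs 1, 2 and 3, against 1.46%, 0.772% and 0.856% in EYFP negative runs, so that both pancreatitis libraries lay below both run 1 libraries. Erythroid-like cells, which make little other than haemoglobin, had 0.0320% and 0.0709% in EYFP negative runs 2 and 3.

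**Figure D2:**
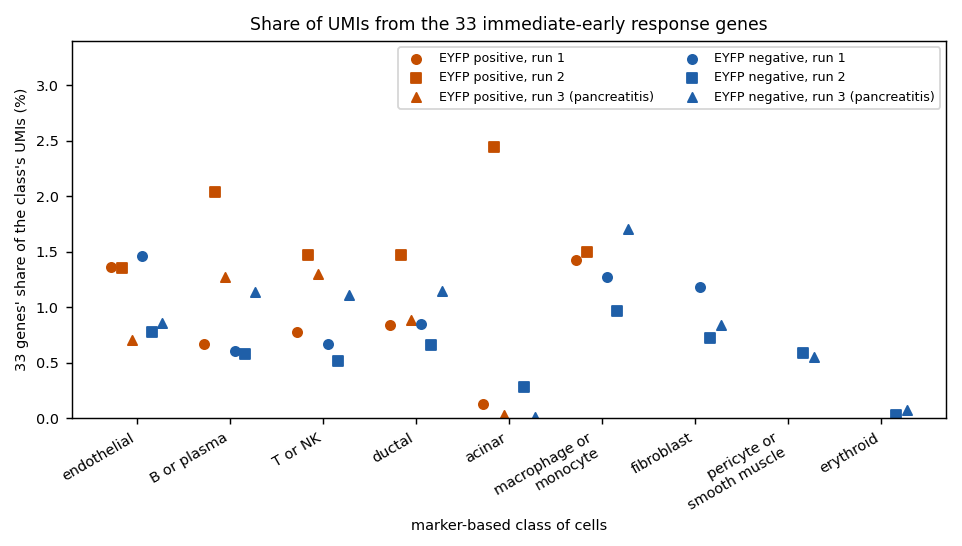
The vertical axis is the share (%) of all UMIs of a class in a library that came from the 33 genes, and each point is 1 library with at least 10 cells of the class (orange EYFP positive, blue EYFP negative, and triangles for run 3). EYFP positive run 2 stood highest in B or plasma-like, T or NK-like, ductal-like and acinar-like cells.

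Acinar-like cells, the enzyme-secreting cells, spanned the widest range of the classes and fell into 2 clusters. Cluster 11 (540 cells, led by Ctrb1, Reg1 and Try4) had a summed share of 0.0545%, 0.0541% and 0.0263% in EYFP positive runs 1, 2 and 3, against 0.0300%, 0.0687% and 0.0131% in EYFP negative runs. Cluster 14 (41 cells, led by Rbpjl, Gm49016 and Ctrc) had 3.88% and 2.85% in EYFP positive runs 1 and 2 (3 and 31 cells), against 3.19% in EYFP negative run 2 (7 cells), and 0 cells in the other libraries. Fos stood there at 4258 and 4202 CPM in EYFP positive runs 1 and 2 and 4018 CPM in EYFP negative run 2, on 27, 271 and 42 UMIs. In cluster 11, Fos had 11, 0 and 28 UMIs in EYFP positive runs 1, 2 and 3 and 3, 15 and 3 UMIs in EYFP negative runs 1, 2 and 3. Cluster 14 also differed in the nuclear RNA Malat1, at 161016 and 126165 CPM in EYFP positive runs 1 and 2 and 227186 CPM in EYFP negative run 2, against 94.8 to 14304 CPM in cluster 11, and its median depth was 0.423 of that of its own libraries. The part of these measures in the genes' levels was not tested. Only 8 acinar-like cells came from EYFP negative run 1, so no test was made in this class.

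The comparison of EYFP positive with EYFP negative cells asked whether labelled cells of a class differed from their unlabelled neighbours. None of the 33 genes passed the threshold (edgeR quasi-likelihood test, Benjamini-Hochberg adjusted p under 0.05 over all genes tested, condition in the model, 3 against 3 libraries) in endothelial-like (28 tested), B or plasma-like (27), T or NK-like (28) or ductal-like cells (25), and DESeq2 called 0 as well. Below the filter on low counts were Egr2 in all 4 classes, Atf3 in all but ductal-like, Egr3 in all but B or plasma-like, Fosl2 in B or plasma-like and ductal-like, Ier3 in B or plasma-like and T or NK-like, Nr4a2 in B or plasma-like and ductal-like, Gadd45g in T or NK-like and ductal-like and Csrnp1 in endothelial-like and ductal-like cells. Myc fell below it in endothelial-like, Socs3 in B or plasma-like, and Klf2 and Nr4a1 in ductal-like cells. Over all genes tested, 0.0278%, 0%, 0.0375% and 0.0876% passed in these classes. At an unadjusted p under 0.05 stood 0 of the genes in endothelial-like, 11 in B or plasma-like, 7 in T or NK-like and 2 in ductal-like cells, against 97 of 7182, 278 of 6434, 280 of 5332 and 154 of 6848 genes. The fitted fold change was positive for 20 of 28, 24 of 27, 26 of 28 and 20 of 25, with median log2 values of 0.15, 0.72, 0.47 and 0.26, against 0.0034, -5.1e-04, 0.0074 and 0.014 for all genes. Without EYFP positive run 2, the medians were 0.12, 0.19, 0.19 and -0.21.

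B or plasma-like cells held 11 genes at an unadjusted p under 0.05, all with positive values: Egr1, Dusp1, Fos and Junb, given here, and Fosb (1.40 ± 0.33), Gadd45g (1.29 ± 0.34), Ier2 (1.07 ± 0.42), Jun (0.93 ± 0.31), Nfkbiz (0.84 ± 0.37), Egr3 (0.81 ± 0.26) and Mcl1 (0.57 ± 0.26, log2 fold change ± SE). Egr1 had 227, 176 and 148 CPM in EYFP positive runs 1, 2 and 3, against 66.5, 33.05 and 88.2 CPM in EYFP negative runs 1, 2 and 3 (log2 fold change 1.55 ± 0.34 (SE), adjusted p = 0.210). It was higher in EYFP positive cells in 3 of 3 runs, and the groups did not overlap. Dusp1, the MAP kinase phosphatase, had 44.4, 219.9 and 203 CPM in EYFP positive runs 1, 2 and 3, against 13.3, 45.7 and 89.5 CPM in EYFP negative runs 1, 2 and 3 (log2 fold change 1.58 ± 0.42 (SE), adjusted p = 0.551). It was also higher in 3 of 3 runs, with overlapping groups. Fos had 399.5, 1744 and 833 CPM in EYFP positive runs 1, 2 and 3, against 234, 326 and 569.9 CPM in EYFP negative runs 1, 2 and 3 (log2 fold change 1.36 ± 0.39 (SE), adjusted p = 0.697). Junb had 345, 2939 and 895 CPM in EYFP positive runs 1, 2 and 3, against 302, 357 and 793 CPM in EYFP negative runs 1, 2 and 3 (log2 fold change 1.49 ± 0.52 (SE), adjusted p = 1.0). In both, EYFP positive run 2 lay far above all other libraries, and without it the log2 fold changes were 0.58 for Fos and 0.17 for Junb. With run as a block, 2 genes passed the threshold in this class, Dusp1 (log2 fold change 1.60, adjusted p = 0.0149) and Egr1 (1.52, adjusted p = 0.0311), among 13 genes in all. Without the barcodes that both libraries of a run held, Egr1 stood at 1.17 (adjusted p = 0.974) and Dusp1 at 1.15 (adjusted p = 1.0) in the fit with no run block.

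T or NK-like cells had the same direction for most of the genes. Fos had 285, 1897 and 1057 CPM in EYFP positive runs 1, 2 and 3, against 140.0, 96.9 and 822 CPM in EYFP negative runs 1, 2 and 3 (log2 fold change 2.24 ± 0.71 (SE), adjusted p = 0.580). Each EYFP positive library exceeded its partner, and EYFP negative run 3 exceeded EYFP positive run 1. Its log2 fold change was 2.49 without shared barcodes (adjusted p = 0.385) and 0.69 without EYFP positive run 2 (adjusted p = 0.494). Leaving out shared barcodes kept 9 of the 24 T or NK-like cells of EYFP positive run 2, fewer than the 10 otherwise required per library. This limit also holds for the other genes given below without shared barcodes. Dusp1 had 265, 381 and 329.8 CPM in EYFP positive runs 1, 2 and 3, against 84.9, 67.99 and 203 CPM in EYFP negative runs 1, 2 and 3 (log2 fold change 1.47 ± 0.32 (SE), adjusted p = 0.262). Its groups did not overlap. Nr4a2, a nuclear receptor, had 101, 25.8 and 85.1 CPM in EYFP positive runs 1, 2 and 3, against 9.18, 4.34 and 55.96 CPM in EYFP negative runs 1, 2 and 3 (log2 fold change 1.73 ± 0.53 (SE), adjusted p = 0.575). Its values rest on 31, 4 and 24 UMIs, against 4, 3 and 109 UMIs, and the 31 came from 13.6% of 44 cells. Socs3 had 71.97, 96.8 and 67.4 CPM in EYFP positive runs 1, 2 and 3, against 25.3, 31.8 and 42.6 CPM in EYFP negative runs 1, 2 and 3 (log2 fold change 1.04 ± 0.33 (SE), adjusted p = 0.580). Socs3 did not overlap between the groups, while Nr4a2 did. Other genes at an unadjusted p under 0.05 were Egr1 (1.20 ± 0.34), Fosb (1.43 ± 0.47) and Nfkbiz (0.64 ± 0.29, log2 fold change ± SE), none of which passed the threshold. Without shared barcodes, Dusp1 stood at 1.497 (adjusted p = 0.107), Nr4a2 at 1.83 (0.456), Socs3 at 0.97 (0.743), Fosb at 1.61 (0.536), Egr1 at 1.18 (0.553) and Nfkbiz at 0.69 (0.898, all adjusted p).

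Run by run, the gap was largest in run 2 in all 4 classes. Within runs, on log2 ratios of CPM with 10 added to each, 27 of 27 genes were higher in EYFP positive B or plasma-like cells in run 2 (median 1.52), against 15 in run 1 (median 0.035) and 20 in run 3 (median 0.26). In T or NK-like cells the counts were 22, 25 and 20 of 28 in runs 1, 2 and 3. Endothelial-like cells had 9, 23 and 9 of 28, and ductal-like cells 11, 24 and 8 of 25. Of all genes tested, 57.6% were higher in EYFP positive cells in run 2 in B or plasma-like (median 0.13), 51.8% in T or NK-like (0.028), 50.7% in endothelial-like (0.0077) and 55.8% in ductal-like cells (0.059), and in runs 1 and 3 the shares over the 4 classes lay between 44.8% and 58.9%. Without shared barcodes the median of run 2 was 1.51 in B or plasma-like (24 EYFP positive cells left), 1.63 in T or NK-like (9 cells), 0.77 in endothelial-like (29 cells) and 0.24 in ductal-like cells (4 cells), against 0.13, 0.063, -0.017 and -1.72 for all genes. Higher in EYFP positive cells in 3 of 3 runs were 12 of 27 genes in B or plasma-like (12.5% of all genes tested), 13 of 28 in T or NK-like (17.3%), 2 of 28 in endothelial-like (15.5%) and 4 of 25 in ductal-like cells (16.7%). Lower in 3 of 3 runs were 2 in endothelial-like cells (15.1% of all genes) and 0 in B or plasma-like (13.3%), T or NK-like (10.3%) and ductal-like cells (10.9%).

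**Figure D3:**
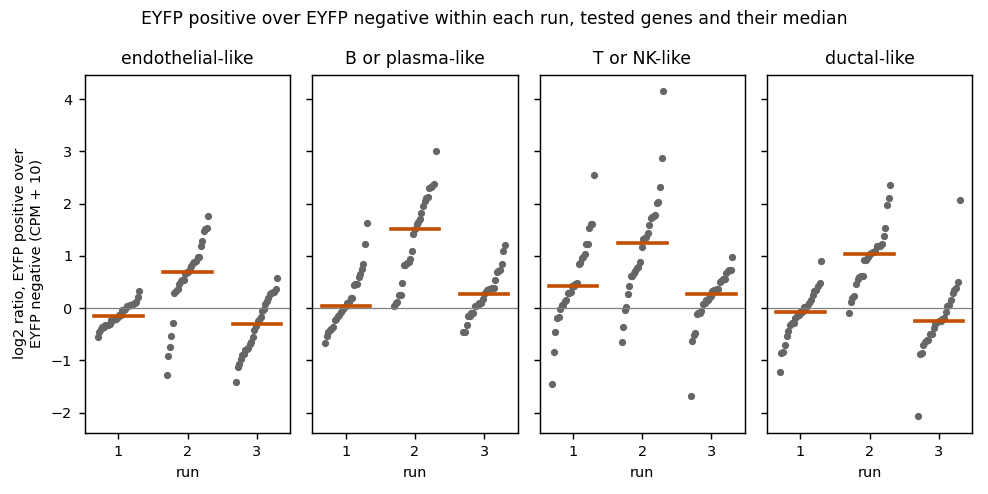
Each point is 1 tested gene of the list, the vertical axis its log2 ratio of EYFP positive over EYFP negative (CPM with 10 added) within a run, and the orange bar the median. The median of run 2 lay above 0 in all 4 classes, and those of runs 1 and 3 lay above 0 in B or plasma-like and T or NK-like cells only.

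In ductal-like cells, Btg2 had 198, 181 and 185 CPM in EYFP positive runs 1, 2 and 3, against 367, 165 and 808 CPM in EYFP negative runs 1, 2 and 3 (log2 fold change -1.002 ± 0.32 (SE), adjusted p = 1.0). Atf3 had 30.8, 176 and 32.2 CPM in EYFP positive runs 1, 2 and 3, against 11.96, 53.97 and 0 CPM in EYFP negative runs 1, 2 and 3 (log2 fold change 1.17 ± 0.56 (SE), adjusted p = 1.0). The groups overlapped in both. The 0 of Atf3 in EYFP negative run 3, from 11 cells, allows up to 30.3 CPM (3 counts). Its 11.96 CPM in EYFP negative run 1 is 3 UMIs. With run as a block, Atf3 passed the threshold (log2 fold change 1.67, adjusted p = 0.0333), among 9 genes in all. With no block, its value was -0.21 without EYFP positive run 2, so the direction rests on that library, and without shared barcodes Atf3 fell below the filter on low counts. In endothelial-like cells no gene had an unadjusted p under 0.05, and the groups of Fos overlapped, with 533, 812 and 127 CPM in EYFP positive runs 1, 2 and 3, against 588, 233 and 356 CPM in EYFP negative runs 1, 2 and 3 (log2 fold change 0.14 ± 0.44 (SE), adjusted p = 1.0). The EYFP sort also went with other measures. The median mitochondrial share of a cell was 1.43%, 2.23% and 1.85% in EYFP positive runs 1, 2 and 3, against 4.52%, 3.85% and 2.87% in EYFP negative runs 1, 2 and 3, lower in each run. Summed heat shock genes (12 in the list) in B or plasma-like cells were 1963, 7234 and 9686 CPM in EYFP positive runs, against 2580.1, 4537 and 8121 CPM in EYFP negative runs, lower in run 1 and higher in runs 2 and 3. The part of both in the result was not tested. Whether the EYFP effect differed between pancreatitis and homeostasis was tested as an interaction, which called 0 of 30, 29, 31 and 27 genes of the list in endothelial-like, B or plasma-like, T or NK-like and ductal-like cells (0%, 0%, 0% and 0.352% of all genes; 1, 0, 7 and 8 of the list at an unadjusted p under 0.05, against 201 of 8093, 183 of 7399, 114 of 6327 and 373 of 7961 genes). Each sort has 1 pancreatitis library, which this test assumes to vary like the homeostasis libraries, and the size of difference it could detect was not examined.

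The comparison of pancreatitis with homeostasis (2 against 4 libraries, EYFP sort in the model) had different leading genes and different directions by class. In endothelial-like cells 0 of 28 genes passed the edgeR threshold (0.0278% of all 7182 genes passed), 9 had an unadjusted p under 0.05 (336 of all genes), and DESeq2 called Junb (log2 fold change -2.15, adjusted p = 0.00728) and Egr1 (-2.66, adjusted p = 0.0100). Junb had 147 and 262 CPM in the EYFP positive and EYFP negative pancreatitis libraries, against 944 and 1295 CPM in EYFP positive and 1182 and 442 CPM in EYFP negative homeostasis libraries (log2 fold change -2.12 ± 0.44 (SE), adjusted p = 0.553). Egr1 had 53.4 and 91.5 CPM in the EYFP positive and EYFP negative pancreatitis libraries, against 532 and 421 CPM in EYFP positive and 786 and 167 CPM in EYFP negative homeostasis libraries (log2 fold change -2.60 ± 0.56 (SE), adjusted p = 0.553). Both pancreatitis libraries lay below all 4 homeostasis libraries for each gene. Ier2, a nuclear early response protein, had 140.1 and 224 CPM in the EYFP positive and EYFP negative pancreatitis libraries, against 619 and 467 CPM in EYFP positive and 729.9 and 285 CPM in EYFP negative homeostasis libraries (log2 fold change -1.46 ± 0.38 (SE), adjusted p = 0.757). Zfp36 had 140.1 and 111 CPM in the EYFP positive and EYFP negative pancreatitis libraries, against 334 and 314 CPM in EYFP positive and 430.0 and 166 CPM in EYFP negative homeostasis libraries (log2 fold change -1.29 ± 0.36 (SE), adjusted p = 0.870). Nfkbiz had 0 and 7.22 CPM in the EYFP positive and EYFP negative pancreatitis libraries, against 29.5 and 38.3 CPM in EYFP positive and 39.6 and 17.5 CPM in EYFP negative homeostasis libraries (log2 fold change -2.37 ± 0.79 (SE), adjusted p = 0.979). Its 0 in EYFP positive pancreatitis allows up to 20.01 CPM (3 counts, counting error only). The other genes at an unadjusted p under 0.05 were Ier3 (-1.32 ± 0.38), Dusp1 (-0.98 ± 0.35), Socs3 (-1.02 ± 0.41) and Fosb (-0.78 ± 0.35, log2 fold change ± SE), and all 9 had negative values.

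Across endothelial-like cells, 9 of 28 genes (Dusp1, Egr1, Ier2, Ier3, Junb, Mcl1, Nfkbiz, Socs3 and Zfp36) had both pancreatitis libraries below all homeostasis libraries, against 9.44% of all genes tested, and 1 (Klf6) had both above, against 8.27%. The median log2 fold change of the 28 genes was -0.59, against -0.022 for all genes. Without the EYFP negative homeostasis library of run 2 it was -1.05, with 4 genes past the threshold (Egr1, Ier2, Junb and Nr4a1, where 0.151% of all genes passed), and without the EYFP positive pancreatitis library -0.35 with 0. Endothelial-like cells came from clusters 0, 1, 4 and 5, and cluster 4, with a median depth of 0.293 of that of its libraries, held 329 of the 844 cells of EYFP negative run 2. Within EYFP negative libraries, Egr1 in run 3 (pancreatitis) against runs 1 and 2 (homeostasis) was 190.3 against 1399 and 236 CPM in cluster 0, 61.7 against 514 and 108 in cluster 1, 16.2 against 504 and 107 in cluster 4, and 45.9 against 512 and 131 in cluster 5. Junb was likewise lower in run 3, at 397 against 1503 and 599 CPM in cluster 0, 296 against 984 and 386 in cluster 1, 16.2 against 595 and 223 in cluster 4, and 153 against 1186 and 369.7 in cluster 5. Egr1 had only 38 UMIs in run 3 over these clusters together, so its lowest values rest on few counts. Junb, with the same 16.2 CPM in cluster 4, had equally few UMIs there. Without cluster 4, Egr1 (-2.51, adjusted p = 0.0226) and Junb (-2.06, adjusted p = 0.0237) passed the edgeR threshold, and without shared barcodes they passed too (adjusted p = 0.0354 and 0.0263).

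In B or plasma-like cells 2 of 27 genes rose in pancreatitis and 0 fell, where 2.04% of all 6434 genes passed (25 higher, 106 lower). Phlda1 had 127 and 66.2 CPM in the EYFP positive and EYFP negative pancreatitis libraries, against 4.93 and 7.33 CPM in EYFP positive and 7.16 and 6.01 CPM in EYFP negative homeostasis libraries (log2 fold change 3.31 ± 0.36 (SE), adjusted p = 0.000103). The pancreatitis values rest on 37 and 150 UMIs, with 95% exact Poisson intervals of 89.7 to 176 and 56.00 to 77.6 CPM that cover counting error only, and the groups did not overlap. The 4.93 and 7.33 CPM of the EYFP positive homeostasis libraries are 1 UMI each, where 3 counts would be 14.8 and 21.99 CPM. The size of the fold change therefore rests partly on very low counts. Gadd45g, a stress-response gene, had 155 and 61.8 CPM in the EYFP positive and EYFP negative pancreatitis libraries, against 19.7 and 65.96 CPM in EYFP positive and 17.4 and 15.02 CPM in EYFP negative homeostasis libraries (log2 fold change 1.72 ± 0.31 (SE), adjusted p = 0.00444). EYFP positive run 2 overlapped the pancreatitis range. Without shared barcodes the adjusted p of Gadd45g was 0.0618, and Phlda1 passed (2.998, adjusted p = 0.00286). Neither passed without EYFP negative run 3 (adjusted p = 0.253 for Phlda1 and 0.961 for Gadd45g), and Gadd45g passed neither without EYFP positive run 3 (adjusted p = 0.0589) nor without EYFP negative run 2 (adjusted p = 0.0844). Rhob (0.99 ± 0.26, adjusted p = 0.0578) and Klf6 (0.998 ± 0.27, adjusted p = 0.0705) did not pass. The list's median log2 fold change was 0.28, against -0.022 for all genes. Both pancreatitis libraries lay above all homeostasis libraries for 6 genes (Btg2, Klf6, Nr4a1, Phlda1, Rhob and Zfp36l1, against 18% of all genes tested) and below for 0 (3.71%). Without EYFP positive run 2, 9 of 28 genes of the list passed and the median was 0.63, while the share of all genes that passed was 4.86%. Cluster 8 (59 cells, led by Jchain, Ighg3 and Igkc) held 0 cells of EYFP negative run 3, and without it Phlda1 stood at 2.94 (adjusted p = 0.000191).

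In T or NK-like cells 2 of 28 genes rose and 0 fell, against 0.581% of all 5332 genes. Phlda1 had 74.5 and 121 CPM in the EYFP positive and EYFP negative pancreatitis libraries, against 29.4 and 19.4 CPM in EYFP positive and 6.89 and 20.3 CPM in EYFP negative homeostasis libraries (log2 fold change 2.38 ± 0.40 (SE), adjusted p = 0.0223). Klf6, a transcription factor, had 812 and 569 CPM in the EYFP positive and EYFP negative pancreatitis libraries, against 317 and 265 CPM in EYFP positive and 303 and 152 CPM in EYFP negative homeostasis libraries (log2 fold change 1.33 ± 0.26 (SE), adjusted p = 0.0427). The groups overlapped for neither gene. For Phlda1, the 19.4 CPM of EYFP positive run 2 and the 6.89 CPM of EYFP negative run 1 are 3 UMIs each. DESeq2 gave Phlda1 an adjusted p of 0.0896 and called Klf6 (adjusted p = 0.00431). Without cluster 12 the adjusted p was 0.0785 for Phlda1 and 0.0753 for Klf6, and without cluster 17 it was 0.0710 and 0.141. Without EYFP negative run 3 it was 0.998 and 0.483, and without EYFP negative run 2 0.143 and 0.301. Klf6 also missed the threshold without EYFP positive run 3 (adjusted p = 0.706) and without EYFP positive run 1 (adjusted p = 0.0575). Both passed without cluster 19, of whose 101 cells 79 came from EYFP negative run 3 (adjusted p = 0.00816 and 0.0242). Jun had 1248 and 1302 CPM in the EYFP positive and EYFP negative pancreatitis libraries, against 301 and 1200.2 CPM in EYFP positive and 91.8 and 286 CPM in EYFP negative homeostasis libraries (log2 fold change 1.70 ± 0.61 (SE), adjusted p = 0.501). Its pancreatitis libraries lay above all homeostasis libraries, with EYFP positive run 2 the closest. Fos had 1057 and 822 CPM in the EYFP positive and EYFP negative pancreatitis libraries, against 285 and 1897 CPM in EYFP positive and 140.0 and 96.9 CPM in EYFP negative homeostasis libraries (log2 fold change 1.46 ± 0.71 (SE), adjusted p = 0.807). EYFP positive run 2 was the highest library. Both pancreatitis libraries were above all homeostasis libraries for 6 genes (Btg2, Ier5, Jun, Klf6, Phlda1 and Rhob), against 8.85% of all genes, and below for 0 (4.13%). The median of the list was 0.29, against -0.011 for all genes.

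In ductal-like cells 1 of 25 genes rose, Fosb, against 0.453% of all 6848 genes. Fosb had 346 and 647 CPM in the EYFP positive and EYFP negative pancreatitis libraries, against 68.96 and 289 CPM in EYFP positive and 51.8 and 121 CPM in EYFP negative homeostasis libraries (log2 fold change 1.91 ± 0.43 (SE), adjusted p = 0.0419). Both pancreatitis libraries exceeded all homeostasis libraries. It did not pass with DESeq2 (adjusted p = 1.0), nor without EYFP negative run 1 or run 3 (adjusted p = 0.142 and 1.0). Fos had 1081 and 1283 CPM in the EYFP positive and EYFP negative pancreatitis libraries, against 259.8 and 1286 CPM in EYFP positive and 299 and 293 CPM in EYFP negative homeostasis libraries (log2 fold change 1.37 ± 0.42 (SE), adjusted p = 0.284). EYFP positive run 2 overlapped the pancreatitis range. Without shared barcodes both passed (Fosb 2.35, adjusted p = 8.04e-07, and Fos 1.69, adjusted p = 0.000422), with 4 cells left in each of EYFP positive run 2 and EYFP negative run 3. Ier2 had 252 and 303 CPM in the EYFP positive and EYFP negative pancreatitis libraries, against 474 and 983 CPM in EYFP positive and 598 and 413 CPM in EYFP negative homeostasis libraries (log2 fold change -1.13 ± 0.34 (SE), adjusted p = 0.256). Its pancreatitis libraries lay below all homeostasis libraries. Both pancreatitis libraries lay above homeostasis for 3 genes (Btg1, Fosb and Klf4, against 8.94% of all genes) and below for 2 (Dusp1 and Ier2, against 9.8%). The list's median was -0.062, against -0.021 for all genes. EYFP negative run 3 had only 11 ductal-like cells, and acinar marker genes supplied 64142 CPM there, against 2168 to 4243 CPM in the other ductal-like libraries. The part of this in the result was not tested.

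**Figure D4:**
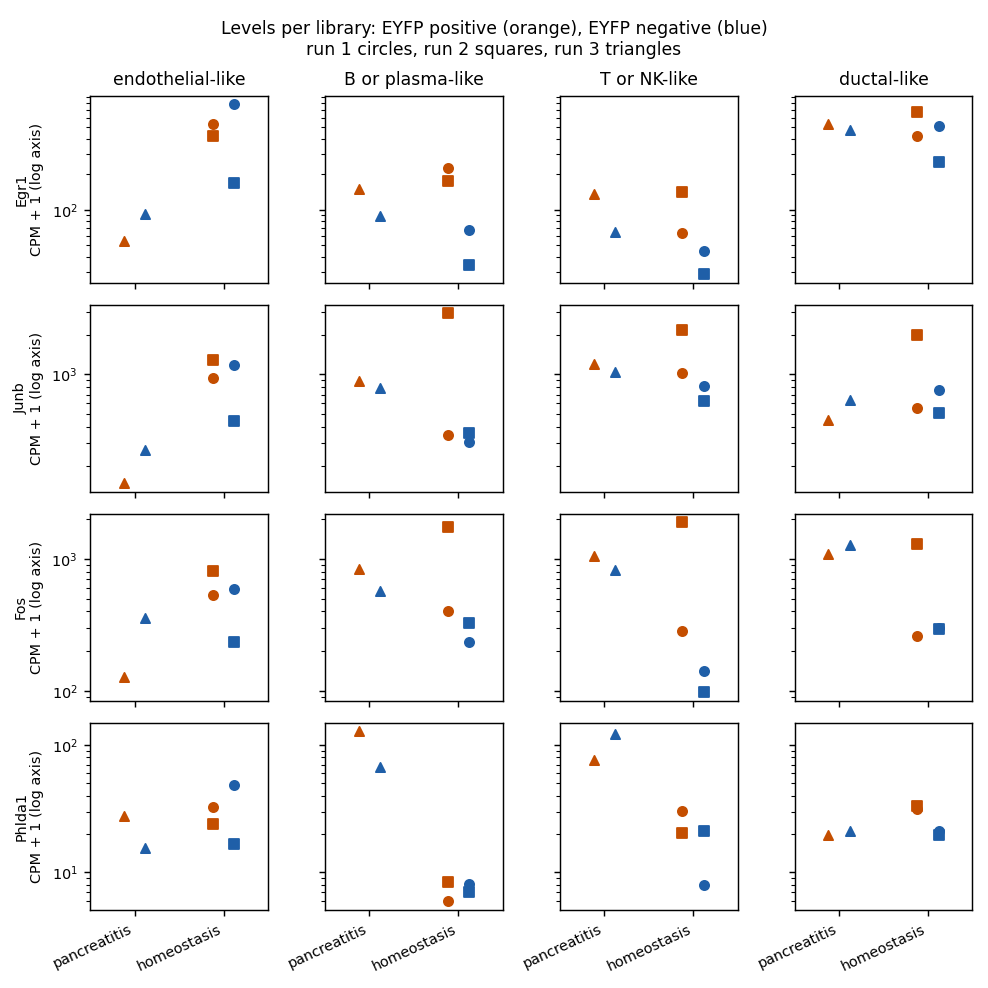
Each panel shows 1 gene (rows, CPM with 1 added on a log axis) in 1 class (columns), and each point is 1 library, with pancreatitis on the left and homeostasis on the right. Egr1 and Junb were lowest in the pancreatitis libraries of endothelial-like cells, and Phlda1 was highest in those of B or plasma-like and T or NK-like cells.

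**Figure D5:**
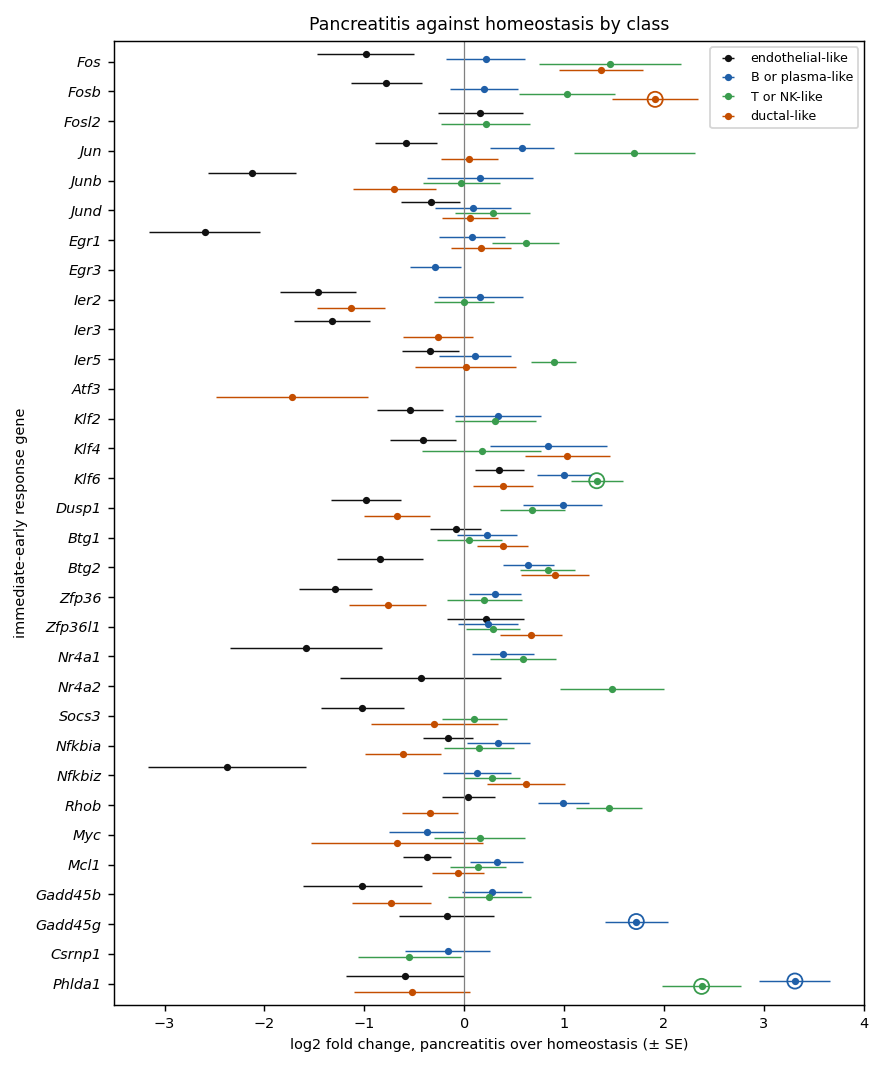
The horizontal axis is the fitted log2 fold change of pancreatitis over homeostasis with its standard error, for the genes tested in each of 4 classes, and open circles mark an adjusted p under 0.05. The 5 circled values are Phlda1 and Gadd45g in B or plasma-like, Phlda1 and Klf6 in T or NK-like and Fosb in ductal-like cells, and most endothelial-like values lay below 0.

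Whether the pancreatitis effect itself differed between classes was tested with the library as a block, a comparison added after the data were seen. In edgeR the spread of each gene is drawn toward that of all genes tested. The small p-values below therefore do not stand for replication beyond the 2 pancreatitis and 4 homeostasis libraries. The endothelial-like effect was lower than that of T or NK-like cells for 18 of 30 genes and higher for 0 (1.41% of all 8006 genes passed), lower than that of B or plasma-like cells for 10 of 32 (2.1% of 8162) and lower than that of ductal-like cells for 6 of 30 (0.649% of 8476). The median difference over the list was -1.49, -1.25 and -0.79 log2 units against T or NK-like, B or plasma-like and ductal-like cells, where all genes had -0.078, -0.011 and -0.088. Egr1 differed by -3.19 ± 0.38 (SE, adjusted p = 1.34e-13), -2.63 ± 0.39 (adjusted p = 7.46e-07) and -2.76 ± 0.39 (adjusted p = 3.37e-09) against these 3 classes. Junb differed by -2.20 ± 0.31, -2.52 ± 0.39 and -1.64 ± 0.35 (adjusted p = 5.72e-10, 2.56e-06 and 0.00106). Fos differed by -2.83 ± 0.32, -1.41 ± 0.38 and -2.71 ± 0.35 (adjusted p = 3.37e-15, 0.0178 and 1.15e-10), and Btg2 by -1.61 ± 0.30, -1.40 ± 0.36 and -1.75 ± 0.35 (adjusted p = 3.59e-05, 0.0117 and 0.000206, edgeR). These 4 genes passed against all 3 classes. The calls depended on the test: DESeq2 called 2, 3 and 0 of the list (0.0581%, 0.0756% and 0% of all genes), and sums per run 2, 9 and 0 (0.143%, 1.60% and 0.0422%). Without EYFP negative run 3 the edgeR counts were 7, 1 and 3 (0.25%, 0.117% and 0.134%).

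Genes around the list were counted in 6 companion lists, whose counts in pancreatitis stand beside 2.04%, 0.581% and 0.453% of all genes called in B or plasma-like, T or NK-like and ductal-like cells. In the EYFP comparison 0 genes of any companion list passed in the 4 classes. In pancreatitis, of 21 tested early effectors in B or plasma-like cells 2 rose and 0 fell, Plk2, a polo-like kinase, at 1.87 ± 0.45 (SE, adjusted p = 0.0363) and Tob2, an anti-proliferative relative of Btg2, at 1.06 ± 0.25 (SE, adjusted p = 0.0363). In T or NK-like cells 2 of 17 rose, Rgs2, a regulator of G protein signalling, at 1.37 ± 0.25 (SE, adjusted p = 0.0281) and Tob2 at 1.23 ± 0.24 (SE, adjusted p = 0.0427). Among other immediate-early transcription factors, Hes1, the Notch target, rose in B or plasma-like cells (1.35 ± 0.33 (SE, adjusted p = 0.0448), 1 of 10 tested) and fell in ductal-like cells (-1.28 ± 0.29 (SE, adjusted p = 0.0419), 1 of 16). Of the heat shock genes, Hsp90aa1, an inducible chaperone, rose in B or plasma-like (1.54 ± 0.32 (SE, adjusted p = 0.0117), 1 of 10 tested) and T or NK-like cells (1.53 ± 0.25 (SE, adjusted p = 0.0223)), where Hsph1 rose too (1.27 ± 0.25 (SE, adjusted p = 0.0427), 2 of 10). In the pancreatitis comparison no gene of the ERK feedback, NF-kB feedback or upstream regulator lists passed in the 4 classes, and in endothelial-like cells none of the 6 lists held a called gene. Summed heat shock genes stood at 8121 to 9686 CPM in pancreatitis, against 1963 to 7234 CPM in homeostasis, in B or plasma-like cells, at 7435 to 9827 against 3593 to 6317 in T or NK-like, at 5289 to 5415 against 2958 to 4106 in ductal-like and at 6336 to 6643 against 4024 to 7300.2 CPM in endothelial-like cells. Haemoglobin and other erythroid markers in endothelial-like cells were 467 to 15081 CPM in pancreatitis, against 130.2 to 1856 CPM in homeostasis. The part of these in the results was not tested. In the differences between classes, 4 of 25 early effectors were lower in endothelial-like than in B or plasma-like cells, 4 of 24 lower than in T or NK-like and 1 of 23 lower than in ductal-like cells, and 0 were higher, beside 2.1%, 1.41% and 0.649% of all genes called. Ppp1r15a, a stress-induced phosphatase subunit, passed against all 3, by -2.25 ± 0.36 (SE, adjusted p = 2.01e-07) against T or NK-like cells. Heat shock genes were lower for 3, 3 and 1 of 12 against B or plasma-like, T or NK-like and ductal-like cells.

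Over the 41 sums of a class in a library with at least 10 cells, the level of Fos (log2 CPM with 1 added) followed that of Jun most closely (Pearson r = 0.91, rank 1 of 2630 genes with a mean log2 CPM of at least 5). Klf6 (0.88), Ier2 (0.87), Fosb (0.87), Junb (0.87), Egr1 (0.85), Btg2 (0.85) and Jund (0.84) were also among the first 14 genes, while Klf2 (0.46) and Klf4 (0.60) ranked 2143 and 1355. Among the 5 genes outside the list with the highest correlation were Slc38a2, an amino acid transporter (0.90), Kdm6b, a histone demethylase (0.88), Ppp1r10, a nuclear regulator of protein phosphatase 1 (0.87), and Rsrp1 (0.85). The sums share libraries and classes, so these correlations are descriptions.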

How the data were processed

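Deposited values were raw UMI counts per gene and barcode, whole numbers per the file headers and values. The submitters' processing notes name Cell Ranger 2.1.0 and GRCh38, a human build. Per the file headers the software was version 3.1.0, and every gene identifier is a mouse one. No source used here names a mouse build. The 33 genes, the companion and marker lists and the tests were chosen with earlier results of these data known.

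Of 8582 barcodes, 2977 with under 200 genes, 676 more with over 20% mitochondrial UMIs and 41 that Scrublet called doublets were removed (scanpy 1.11.5). Cells were scaled to 10000 UMIs and grouped by Leiden clustering (igraph 0.11.9, resolution 1) on 30 components of 2000 variable genes that left out the 33, with 15 neighbours per cell. Libraries were not integrated. Of 20 clusters, 2 stayed unnamed after comparison with 15 marker lists. UMIs were summed per class and library and tested with edgeR 4.0.16 (TMM, filterByExpr, quasi-likelihood F test) in R 4.3.3 with a Benjamini-Hochberg adjustment over all genes tested and a threshold of 0.05, and with DESeq2 1.42.0 as an alternative. Each standard error is the size of the log2 fold change over the square root of F.

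Counts were simulated from edgeR's own fitted means and dispersions of the real sums, so recovery in real counts may be lower. In the EYFP comparison of B or plasma-like cells, edgeR recovered 76.8% of 4-fold and 15.9% of 2-fold changes (6434 genes). For the difference between endothelial-like and T or NK-like cells these were 50.0% and 1.67% (8006 genes). Unchanged genes made up 3.91% and 1.14% of the calls in these simulations. They made up 5.52% for pancreatitis in B or plasma-like and 6.67% for EYFP in T or NK-like cells.

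Run numbers pair the libraries, since a run is the submitters' label for both sorts. The homeostasis deviations of the EYFP positive and EYFP negative libraries correlated by 0.18 to 0.42 across genes in the 4 classes, over the 2 homeostasis runs only. Named genes were the 33, the 3 lowest-p genes of each companion list and comparison, the 5 genes outside the list most correlated with Fos (1 of which is not reported here), and Malat1, while Xist was added after its values were seen. Alternatives were other size factors, no filter, a stricter choice of cells (500 genes or more and 10% mitochondrial UMIs or less), doublets kept, the 33 genes among variable genes, library sizes without abundant gene families, libraries left out, the run block and sums per run. Tests between classes, and fits without shared barcodes or without a cluster, were chosen after seeing the data.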

Additional observations from a re-analysis of the deposited data

Results flagged for a closer look

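The pancreatitis effect differed between classes by a direct test of the difference, which is why these genes are listed. That test was added after the data were seen. Against T or NK-like cells, the log2 fold change of pancreatitis over homeostasis in endothelial-like cells differed at an adjusted p under 0.05 (edgeR, library as a block) for 18 genes, with differences of Egr1 -3.19, Phlda1 -3.04, Fos -2.83, Nr4a2 -2.73, Nfkbiz -2.66, Jun -2.53, Fosb -2.22, Junb -2.20, Ier3 -2.16, Nr4a1 -1.91, Dusp1 -1.70, Zfp36 -1.64, Btg2 -1.61, Ier2 -1.52, Rhob -1.46, Ier5 -1.27, Klf2 -1.06 and Klf6 -1.06. Against B or plasma-like cells it differed for 10 genes, with differences of Phlda1 -4.04, Egr1 -2.63, Junb -2.52, Dusp1 -1.94, Gadd45g -1.86, Ier2 -1.73, Zfp36 -1.59, Fos -1.41, Btg2 -1.40 and Jun -1.24. Against ductal-like cells the 6 differences were Nfkbiz -3.59, Fosb -3.11, Egr1 -2.76, Fos -2.71, Btg2 -1.75 and Junb -1.64. All were negative, so the endothelial-like value was the lower one. Of all genes tested, 1.41%, 2.1% and 0.649% passed against T or NK-like, B or plasma-like and ductal-like cells. The shares for the other tests named below, and the lower edgeR counts without EYFP negative run 3, are given above. In endothelial-like cells of EYFP positive pancreatitis, Nr4a2 had 2 UMIs, Gadd45g 3 and Nfkbiz 0, and Ier3 had 1 to 11 UMIs per T or NK-like library. The differences of these genes rest on very low counts. That of Phlda1 from B or plasma-like cells rests partly on the very low homeostasis counts given above. Other genes were low in the same endothelial-like library too, with 8 UMIs for Egr1 and 7 for Nr4a1. These calls depended on the test: against T or NK-like, B or plasma-like and ductal-like cells DESeq2 called 2, 3 and 0 and sums per run 2, 9 and 0, so that none of the 6 differences from ductal-like cells was called by either. No group held 4 or more libraries, so no library was tested as an outlier of its group.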

How the results depend on the processing

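Counts here are genes of the list past the threshold. The share of all genes that passed also moved with the setting, as given above for B or plasma-like cells without EYFP positive run 2. That share is not given beside each count here, so a change in a count cannot be read as particular to the list. Without a low-count filter the EYFP comparison called 5 in B or plasma-like and 6 in T or NK-like cells, and pancreatitis 6 in endothelial-like, 5 in B or plasma-like, 8 in T or NK-like and 3 in ductal-like cells, with more genes tested. With the replicate block (run) the EYFP counts were 2 in B or plasma-like and 1 in ductal-like cells, and no other EYFP call of the list changed. Condition and run cannot be separated, so no block was fitted to the pancreatitis effect. DESeq2 called 2 genes in endothelial-like, 1 in T or NK-like and 0 in ductal-like cells in pancreatitis, and 3, 2 and 0 in the differences of endothelial-like from B or plasma-like, T or NK-like and ductal-like cells. Sums per run gave 4, 1 and 2 in B or plasma-like, T or NK-like and ductal-like cells, and 2 and 0 in the differences from T or NK-like and ductal-like cells. Without shared barcodes pancreatitis called 2, 1 and 2 in endothelial-like, B or plasma-like and ductal-like cells, and 3 in the difference from ductal-like cells. Without cluster 4 endothelial-like cells had 2, and without cluster 12, 17 or 7 T or NK-like cells had 0, 0 or 4. Ductal-like cells had 0 when library sizes left out enzyme, haemoglobin and immunoglobulin genes, and 0 when the list was allowed among variable genes. The causes were not tested. Leaving out 1 library at a time gave EYFP counts of 0 to 0, 0 to 1, 0 to 3 and 0 to 2 and pancreatitis counts of 0 to 4, 0 to 9, 0 to 6 and 0 to 3 in endothelial-like, B or plasma-like, T or NK-like and ductal-like cells, and 1 to 16, 7 to 18 and 3 to 7 in the differences from B or plasma-like, T or NK-like and ductal-like cells. Where this leaves 1 pancreatitis library, that library is assumed to vary like the others. EYFP calls appeared in T or NK-like cells without either run 3 library (3 each), in B or plasma-like cells without EYFP positive run 1 or run 2 (1 each) and in ductal-like cells without EYFP positive run 1 (2), EYFP negative run 2 (1) or EYFP negative run 3 (1). Without EYFP positive run 2 pancreatitis called 9 in B or plasma-like, 6 in T or NK-like and 2 in ductal-like cells, and without EYFP positive run 1 or run 3 it called 3 in ductal-like cells. Leaving out 1 library moved the pancreatitis value of Fosb in T or NK-like cells between -0.092 and 1.95, of Btg2 in ductal-like cells between -0.068 and 1.73 and of Zfp36l1 in ductal-like cells between -0.051 and 1.30, the lowest each without EYFP negative run 3, and the EYFP value of Atf3 in ductal-like cells between -0.21 and 3.13, the lowest without EYFP positive run 2. The interaction kept 0 calls with DESeq2's size factors. Between 5 and 8 of the 33 genes per class fell below the filter on low counts, and the part of depth in this was not tested. The alternatives in cells (stricter cells, doublets kept) left the counts within 1.5 times. Of 297 class levels, 40 moved by more than 1 SD with stricter cells.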

Other observations

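Macrophage or monocyte-like cells, which had too few cells in EYFP positive run 3 for a test, had a summed share of the 33 genes of 1.71% in EYFP negative pancreatitis, against 1.27% and 0.965% in EYFP negative homeostasis runs 1 and 2. The EYFP positive homeostasis libraries of runs 1 and 2 (11 and 12 cells) had shares of 1.42% and 1.498%. Fos in these cells stood at 2055 CPM in EYFP negative pancreatitis, against 823 and 655 CPM in EYFP negative and 1800 and 2003 CPM in EYFP positive homeostasis runs 1 and 2. Atf3, the stress-induced AP-1 partner, stood at 49.4 CPM, against 68.2 and 64.4 CPM in EYFP negative and 97.3 and 235.7 CPM in EYFP positive homeostasis. Fibroblast-like cells had Egr1 at 842 CPM in EYFP negative pancreatitis, against 1566 and 905 CPM in EYFP negative homeostasis runs 1 and 2, and Socs3 at 43.6 CPM, against 370.4 and 57.7 CPM. In pericyte or smooth muscle-like cells (13 cells each), Phlda1 stood at 1075 CPM in EYFP negative pancreatitis, against 850.2 CPM in EYFP negative homeostasis run 2. Each pancreatitis value is 1 library, so no test was made.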
